A study of Sus scrofa with 24 samples.

Results

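The messenger RNA of 90 genes for splicing factors and related RNA-binding proteins was followed in pig longissimus dorsi muscle. They are the genes, among the 6765 with exactly 1 symbol in the array annotation, whose symbol starts with SRSF, HNRNP, SNRP, SF3A, SF3B, U2AF or PRPF, or is RBM or DDX followed only by digits (DDX3X and DDX3Y were left out). The rule uses names alone and no measured value, but it was chosen with earlier results of these data known. It gave 11 SR proteins, 17 hnRNPs, 10 snRNP proteins, 7 SF3A and SF3B subunits, 2 U2AF genes, 9 PRPF genes, 16 RBM genes and 18 DDX helicases. SNRPE, U2AF1, PRPF8, RBM20, RBM24, DDX5 and DDX17 were not analysed here. Each gene is represented by its brightest probe set, the one whose mean over all arrays was highest, and 31 of the 90 genes had more than 1 probe set, 139 in all.

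The 24 arrays (Affymetrix GeneChip Porcine Genome Array) cover 8 groups of 3 RNA pools, named a, b and c: German Landrace (DL) and Pietrain (Pi) pigs as adults and at 3 prenatal ages, 35, 63 and 91 dpc (days post conception). All samples are muscle collected when the animals were slaughtered, and the labels name no transgene or treatment in any group. The sources used here do not give how many animals a pool holds, of which sex, or how old the adults were, and p-values therefore rest on the variation among pools alone, part of which may be technical. The labels describe the prenatal pools as peripubertal in a free-text field, and titles at 35 dpc include a K of unknown meaning; stage and breed were taken from the titles and characteristics.

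Splicing removes introns from pre-mRNA in the spliceosome, which is built from small nuclear ribonucleoproteins (snRNPs) and many non-snRNP proteins. The Sm proteins form a ring around the U1, U2, U4 and U5 RNAs, the SF3A and SF3B subunits are part of the U2 snRNP that selects the branch point, U2AF recognises the end of the intron, and PRPF proteins build, remodel or modify the tri-snRNP and the active complex. SR proteins generally bind exonic enhancers and promote exon inclusion, whereas hnRNPs coat nascent RNA and often act as silencers. In skeletal muscle, alternative splicing of sarcomere genes shifts between fetal and adult forms. RBM and DDX are names for protein folds: some of their members splice, others serve ribosome production, RNA decay or antiviral sensing.

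The deposited table holds 1 log2 level per probe set and pool, quantile-normalised, so changes are measured against the rest of the array and no change in total mRNA can be seen. Levels of different probe sets are not comparable with each other. The background ceiling of each array, the highest of 23 control probe sets with no spiked target, lay between 2.31 and 2.69, and 79 of the 90 genes were above it on all 24 arrays. DDX4, a germ cell helicase, and U2AF2, the large U2AF subunit, were above it on 0 arrays and have no measured level. DDX11, DDX25, DDX46, DDX51, DDX54, DDX58, DDX60, SNRPF and SRSF12 were above it on 2 to 23 arrays. Residual standard deviations per array were 0.287 to 0.378 at 35 dpc and 0.646 to 0.852 in adults. The GAPDH 3′ minus 5′ control difference, a measure of RNA integrity, ranged from 0.52 to 1.21 over the 35 dpc pools and from −0.61 to −0.39 over adult pools. At 91 dpc in DL, pool c stood apart with 1.16 against 0.28 and 0.25. A second GAPDH control also read lower in adults (0.11 to 0.20) than at 35 dpc (1.36 to 1.79). An actin control did not, with 2.28 to 2.59 in adults and 2.12 to 2.68 at 35 dpc. Of 15 skeletal muscle fibre markers, 14 were measured, and the log2 of their summed level rose from between 16.78 and 17.01 at 35 dpc to between 19.08 and 19.13 in adults, so the labelled tissue carried its markers at every stage.

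**Figure D1:**
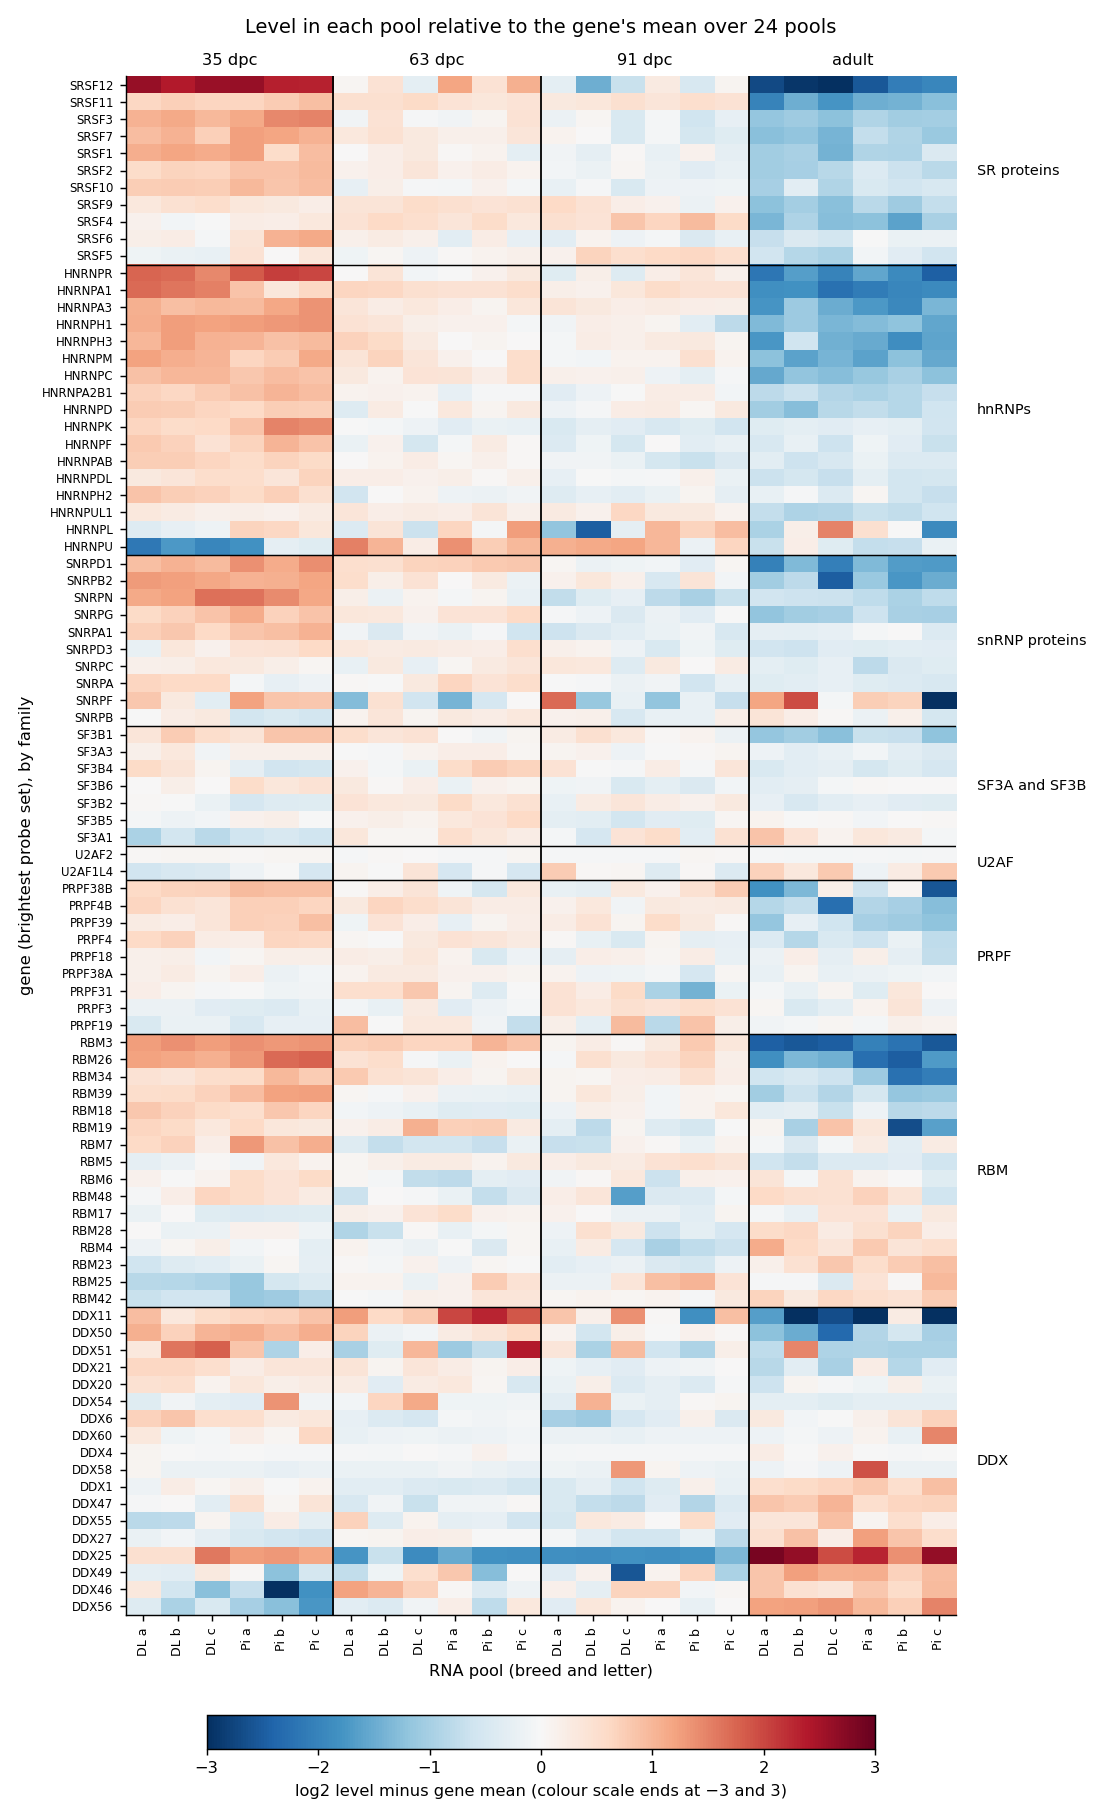
Log2 level of each of the 90 genes (rows, grouped by family and ordered by the adult minus 35 dpc change) in each of the 24 pools (columns), minus the gene's own mean over the 24 pools. Most SR protein and hnRNP rows are red at 35 dpc and blue in adults, while the lowest DDX rows, DDX25, DDX49, DDX46 and DDX56, are red in adults.

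More of these genes fell than rose at each step of development. From 35 to 63 dpc, averaged over both breeds, 15 of the 90 rose and 40 fell (limma, adjusted p below 0.05), where 22.3% of all 23999 probe sets rose and 22% fell. From 63 to 91 dpc 2 rose and 18 fell, against 8.88% and 9.4% of all probe sets. From 91 dpc to the adult 13 rose and 45 fell, against 30.8% and 26.6%. Over the whole span from 35 dpc to the adult, which shares its pools with those steps, 17 rose and 55 fell, against 36% and 30.5%. In shares of the 90 genes, 61.1% fell over the whole span and 18.9% rose, so falls were more frequent, and rises less frequent, than among all probe sets. The median change of the 90 genes was −0.28, −0.17, −0.34 and −0.84 (log2) in these 4 comparisons, and that of all probe sets lay between 0.00 and 0.08. Among the 6765 genes with 1 symbol, 40.4% rose and 34.6% fell over the whole span. Without Pi pool a at 91 dpc, 4 rather than 2 genes rose from 63 to 91 dpc.

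Within single breeds, the 40 falls from 35 to 63 dpc passed in 32 cases in DL (15.7% of all probe sets fell there) and in 36 in Pi (18.4%). Of the 45 falls after 91 dpc 40 passed in DL and 40 in Pi, where 21.4% and 23.2% of all probe sets fell, and of the 55 over the whole span 52 and 51 did (26.8% and 27.9%). The 18 falls from 63 to 91 dpc had the same sign in both breeds, but 6 passed in DL and 11 in Pi, against 4.92% and 5.81% of all probe sets. These genes were picked by the mean over both breeds, which holds the same pools. The counts are therefore not a separate test, and the shares of all probe sets were not picked that way.

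The counts depend on what the arrays are scaled to. When each array was scaled to its spiked hybridisation controls, the median change of all probe sets became −0.78, −0.16, −0.19 and −1.12 in the 4 comparisons, and that of the 90 genes −1.07, −0.33, −0.59 and −2.04. On that scale 2 genes rose and 75 fell from 35 to 63 dpc (8.91% and 63.5% of all probe sets), 0 and 31 from 63 to 91 dpc (5.35% and 12.9%), 9 and 53 from 91 dpc to the adult (22% and 37.6%), and 1 and 80 over the whole span (14.4% and 66.1%). Every gene that fell on the deposited scale also passed as lower on this one. Of the 15 rises from 35 to 63 dpc, 9 turned negative on it, and of the 17 over the whole span 12 did; the 13 from 91 dpc to the adult stayed above 0. Rises below are therefore rises relative to the other transcripts of the array.

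Other measurements moved with the same steps. Markers of dividing cells (13 of 18 listed were measured) passed as lower in 4, 10 and 13 of the 13 at the successive steps. The log2 of their summed level went from between 12.86 and 13.12 at 35 dpc to between 8.42 and 8.89 in adults, where MCM2, MCM3, MCM4, MCM5 and TYMS lay at background in all 6 pools. Neural and Schwann cell markers (10 of 14 measured) fell in 9 of 10 cases from 35 to 63 dpc, from a summed level between 15.56 and 15.93 to one between 7.27 and 8.10, with SNAP25, RTN1 and SYT1 at background in all 6 pools at 63 dpc. Fibroblast and matrix markers (6 of 8 measured) fell in 5 of 6 cases from 91 dpc to the adult, from between 15.55 and 15.93 to between 12.80 and 13.37, and none was at background in all pools of a stage. The part of these shifts in the changes of the splicing genes was not tested, and in whole tissue fewer cells of a type and less RNA per cell cannot be told apart. With the GAPDH 3′ minus 5′ difference in the model, 25 rather than 45 genes fell and 4 rather than 13 rose from 91 dpc to the adult, and 6 rather than 17 rose over the whole span. In that model 11.7% of all probe sets fell and 10.2% rose from 91 dpc to the adult, and 17.3% rose over the whole span. Of the 55 falls over the whole span 38 passed in it, where 17.6% of all probe sets fell. The difference ranged from −0.61 to −0.39 in adult pools and from 0.25 to 1.31 in prenatal ones. As these ranges do not overlap, its part in the adult changes cannot be told apart from that of stage.

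**Figure D2:**
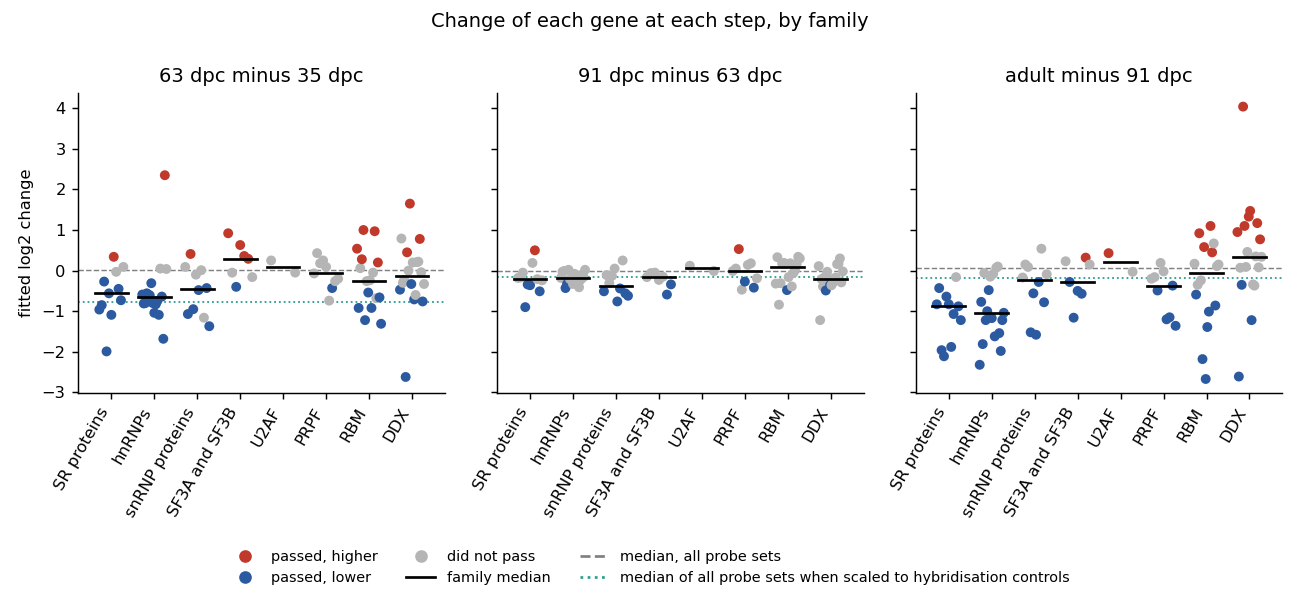
Fitted log2 change of each gene (points) at the 3 successive steps, by family; red and blue points passed as higher or lower, grey ones did not, black bars are family medians, the dashed line is the median of all probe sets and the dotted line that median after scaling to hybridisation controls. SR proteins and hnRNPs lie mostly below both lines in the adult minus 91 dpc panel, with medians of −0.88 and −1.04, whereas the SF3A and SF3B median of 0.29 in the first panel becomes −0.49 on the hybridisation control scale.

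By their brightest probe sets, all 11 SR proteins were lower in adults than at 35 dpc, with a family median of −1.54 and changes from −5.0 to −0.60. Another probe set passed as higher over that span for SRSF9 (0.90 ± 0.26, adjusted p = 0.00569) and for SRSF10 (0.45 ± 0.06, adjusted p = 1.4e-06), the latter with a mean level of 2.60, within the range of the background ceilings. At the successive steps 8, 4 and 10 of the 11 fell and 1, 1 and 0 rose. Of all probe sets 22%, 9.4% and 26.6% fell and 22.3%, 8.88% and 30.8% rose at these steps, and 30.5% fell and 36% rose over the whole span. SRSF3, a small SR protein that also couples splicing to mRNA export, ranged from 13.32 to 13.84 at 35 dpc (median 13.49), 12.24 to 12.77 at 63 dpc (median 12.36), 11.76 to 12.40 at 91 dpc (median 12.14) and 11.11 to 11.44 in adults (median 11.30). The adult pools lay below all prenatal ones, and the change over the whole span was −2.27 ± 0.12 (SE, adjusted p = 6.02e-12), a 4.84-fold fall. SRSF1, the first SR protein described and a general splicing activator, fell from a median of 12.21 at 35 dpc (11.67 to 12.34) to 10.16 in adults (9.69 to 10.69), by 1.96 ± 0.12 on the log2 scale (adjusted p = 8.93e-11). SRSF7, a zinc knuckle SR protein, went from a median of 12.12 (11.79 to 12.30) to 9.92 (9.68 to 10.35), a change of −2.12 ± 0.10 (adjusted p = 1.98e-12). For both genes, adult and 35 dpc pools did not overlap.

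SRSF2, which is known for binding exonic enhancers and for a role in transcription elongation, fell at every step, by 0.56, 0.34 and 0.64. Its pools at 35 dpc lay between 12.81 and 13.22, at 63 dpc between 12.38 and 12.63, at 91 dpc between 11.92 and 12.32 and in adults between 11.23 and 11.86, with no overlap between successive stages. SRSF5 took another course. It lay between 9.89 and 10.55 at 35 dpc (median 10.06) and 9.95 and 10.26 at 63 dpc (median 10.16), and rose to between 10.25 and 10.78 at 91 dpc (median 10.67; change 0.50 ± 0.10, adjusted p = 0.00164), with 1 DL pool at 91 dpc inside the 63 dpc range. On the scale of the hybridisation controls that rise was 0.34 and did not pass (adjusted p = 0.0965). In adults it lay between 9.17 and 10.02 (median 9.54), 1.07 ± 0.10 below 91 dpc (adjusted p = 4.93e-08).

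SRSF12, an SR-related protein, showed the largest fitted fall of the 90 genes over the whole span. It lay between 7.48 and 7.77 at 35 dpc, 4.88 and 6.36 at 63 dpc and 3.71 and 5.44 at 91 dpc. In adults only 2 of 6 pools, Pi pools b and c at 3.09 and 3.21, were above the background ceiling, while DL adults read 2.46, 2.25 and 2.19. The fitted −5.0 ± 0.19 (adjusted p = 6.71e-14) is therefore not exact, and no fold is given. SRSF9, a short SR protein, did not pass before birth (0.09 ± 0.08 and −0.24 ± 0.08, adjusted p = 0.435 and 0.053) and was 1.22 ± 0.08 lower in adults than at 91 dpc (adjusted p = 4.04e-10), from between 10.46 and 11.23 to between 9.39 and 9.93. Its second brightest probe set went the other way at that step (0.70 ± 0.26, adjusted p = 0.0316). SRSF6 is described with its 6 probe sets below.

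By their brightest probe sets, 15 of the 17 hnRNPs were lower in adults than at 35 dpc, 1 was higher and 1 did not pass. The family median was −1.59, and of all probe sets 30.5% fell and 36% rose. The dimmer probe sets of HNRNPA2B1 passed as higher over that span, as described below. The falls were spread over the first and last steps: 14 fell from 35 to 63 dpc (22% of all probe sets), 2 from 63 to 91 dpc (9.4%) and 12 from 91 dpc to the adult (26.6%). At these steps 1, 0 and 0 rose (22.3%, 8.88% and 30.8%). HNRNPR, a binder of mRNA with RNA recognition motifs, had the largest fall of the family. Its 6 pools lay between 12.61 and 13.25 at 35 dpc (median 12.97), 11.10 and 11.57 at 63 dpc (median 11.26), 10.80 and 11.55 at 91 dpc (median 11.34) and 8.74 and 9.63 in adults (median 9.23). The 63 and 91 dpc pools overlapped, and the other steps were separate. The fall over the whole span was 13.5-fold (−3.75 ± 0.14, adjusted p = 5.57e-14), made up of −1.68 ± 0.14 before 63 dpc and −1.98 ± 0.14 after 91 dpc. Its second brightest probe set gave 0.04 for the last step (adjusted p = 0.874).

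HNRNPA1, a splicing silencer that also carries mRNA out of the nucleus, had its larger fall after 91 dpc. Adult pools lay between 9.55 and 9.98 (median 9.86) and 91 dpc pools between 11.92 and 12.34 (median 12.18), a change of −2.32 ± 0.09 (adjusted p = 1.33e-13). HNRNPC, which packages nascent transcripts, fell at each step, by 0.59, 0.33 and 1.22, from between 11.84 and 12.02 at 35 dpc to between 9.48 and 10.06 in adults; the second brightest probe set gave 0.23 from 63 to 91 dpc (adjusted p = 0.657). HNRNPD, known as AUF1 for its role in mRNA decay, did not pass from 63 to 91 dpc (0.02 ± 0.10, adjusted p = 0.989) and fell by 1.0 ± 0.10 from 91 dpc to the adult (adjusted p = 1.35e-07), from between 13.02 and 13.46 to between 11.91 and 12.58, where the second brightest probe set gave 0.12 (adjusted p = 0.222). HNRNPK, a KH-domain protein of transcription and splicing, fell by 1.09 ± 0.09 from 35 to 63 dpc (adjusted p = 1.01e-08), and adults, between 11.60 and 11.92, overlapped 91 dpc pools, between 11.58 and 11.90 (0.07 ± 0.09, adjusted p = 0.54).

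HNRNPU, a scaffold-attachment protein, was the only hnRNP whose brightest probe set passed as higher over any span. DL pools read 3.68, 4.10 and 3.85 and Pi pools 4.0, 5.56 and 5.45 at 35 dpc, and all 6 pools at 63 dpc lay above them, between 6.04 and 7.34. The rise was 2.35 ± 0.28 (adjusted p = 1.29e-06), and 1.57 with scaling to hybridisation controls (adjusted p = 9.67e-05). It fell again by 1.22 ± 0.28 from 91 dpc to the adult (adjusted p = 0.00104), where pools lay between 5.10 and 6.02 and overlapped those of 91 dpc. The net rise over the whole span, 0.97 ± 0.28 (adjusted p = 0.00485), was −0.22 on the hybridisation control scale. The remaining hnRNPs, HNRNPA3, HNRNPAB, HNRNPDL, HNRNPF, HNRNPH1, HNRNPH2, HNRNPH3, HNRNPM and HNRNPUL1, passed as lower over the whole span, by 2.62 to 0.97 on the log2 scale. HNRNPL, a binder of CA-rich RNA, ranged from 7.19 to 10.66 at 91 dpc and from 7.75 to 11.13 in adults and passed in none of the 4 comparisons.

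**Figure D3:**
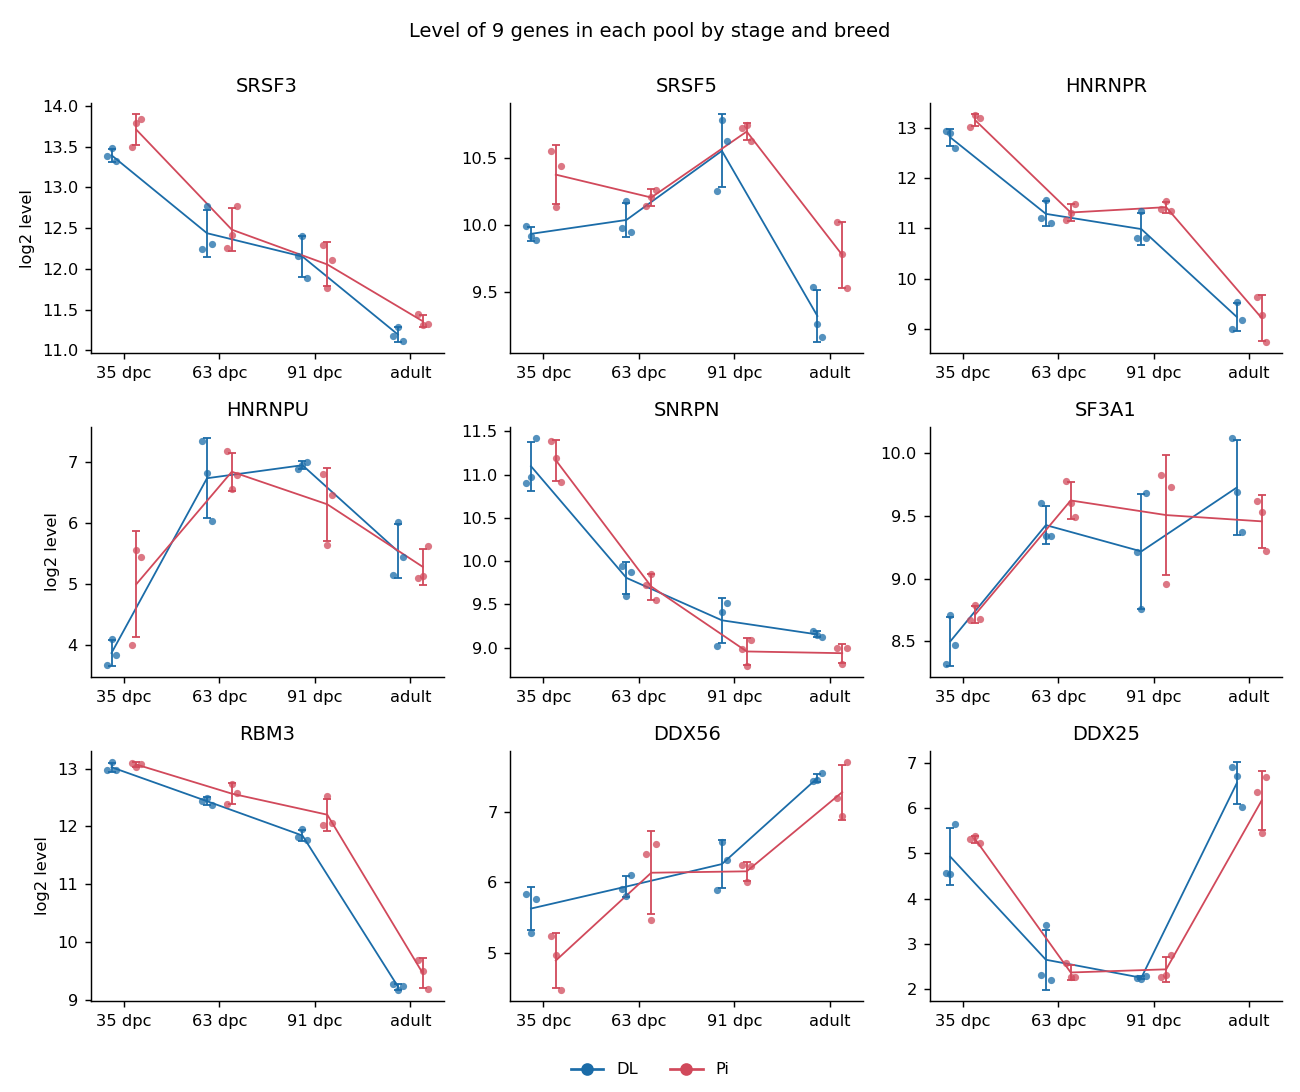
Log2 level of 9 genes in each pool (points) by stage (horizontal axis) and breed (blue DL, red Pi); lines join the means of 3 pools and bars are SDs. Each panel has its own vertical scale: SRSF3, HNRNPR, SNRPN and RBM3 are lowest in adults or level with 91 dpc, HNRNPU peaks before birth, and DDX25 lies near background at 63 and 91 dpc, between 2.20 and 3.41.

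By their brightest probe sets, 8 of the 10 snRNP proteins were lower in adults than at 35 dpc and none passed as higher. The family median was −0.86, and of all probe sets 30.5% fell and 36% rose. From 35 to 63 dpc 5 fell and 1 rose (22% and 22.3% of all probe sets). At each of the later steps 5 fell and 0 rose, against 9.4% and 8.88% from 63 to 91 dpc and 26.6% and 30.8% after it. SNRPD1, a subunit of the Sm ring, showed the largest falls of the 10 from 63 to 91 dpc and over the whole span. Its pools lay between 12.02 and 12.50 at 35 dpc (median 12.19), 11.59 and 11.91 at 63 dpc (median 11.79), 10.77 and 11.17 at 91 dpc (median 11.00) and 9.06 and 9.79 in adults (median 9.42). No stage overlapped the next. The 3 successive changes were −0.48 ± 0.11, −0.76 ± 0.11 and −1.58 ± 0.11 (adjusted p = 0.00202, 9.21e-05 and 1.11e-09).

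SNRPN encodes SmN, a form of the Sm B protein made from an imprinted, paternally expressed gene and best known from brain. It fell early and then levelled: 10.90 to 11.42 at 35 dpc (median 11.08), 9.55 to 9.94 at 63 dpc (median 9.78), 8.79 to 9.52 at 91 dpc (median 9.05) and 8.81 to 9.19 in adults (median 9.06). The change was −1.37 ± 0.11 at the first step (adjusted p = 9.48e-09), −0.62 ± 0.11 at the next (adjusted p = 0.000548) and −0.09 ± 0.11 after 91 dpc (adjusted p = 0.503). Its other probe set changed by −2.07 over the whole span, beside −2.09 for the brighter one. SNRPB, the gene of the ubiquitous Sm B and B′ proteins, took a different course, with 0.41 ± 0.12 at the first step (adjusted p = 0.0121) and 0.19 ± 0.12 over the whole span (adjusted p = 0.199); the first value was −0.38 on the hybridisation control scale. SNRPN and SNRPB proteins are closely related, and whether their probe sets cross-hybridise was not tested.

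SNRPG, another Sm ring subunit, fell by 0.43, 0.56 and 0.78 at the successive steps, from between 11.96 and 12.49 at 35 dpc to between 10.19 and 10.75 in adults. Its dimmer probe set went the other way, by 4.14 ± 0.32 over the whole span. SNRPA, the U1 snRNP A protein, was 0.51 ± 0.08 lower at 91 than at 63 dpc (adjusted p = 0.000101), and its change before 63 dpc differed between breeds, as described below. Members not singled out (SNRPA1, SNRPB2, SNRPC and SNRPD3) passed as lower over the whole span by 0.61 to 2.60, and SNRPF, with 1 adult Pi pool at 2.48 and the others between 5.45 and 7.47, did not pass. The dimmer probe set of SNRPA1 passed as higher over that span and from 35 to 63 dpc.

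The SF3A and SF3B subunits did not move as a group. From 35 to 63 dpc 4 of 7 rose and 1 fell, where 22.3% and 22% of all probe sets did. From 63 to 91 dpc 0 rose and 2 fell (8.88% and 9.4%), and from 91 dpc to the adult 1 rose and 4 fell (30.8% and 26.6%). SF3B1, the large subunit that contacts the branch point and a frequent target of mutation in leukaemia, fell. It lay between 12.15 and 12.62 at 35 dpc (median 12.43), 11.67 and 12.30 at 63 dpc (median 12.00), 11.60 and 12.27 at 91 dpc (median 11.95) and 10.53 and 11.12 in adults (median 10.69). Adults were below every prenatal pool, with a change of −1.16 ± 0.11 from 91 dpc (adjusted p = 2.66e-08), while the second brightest probe set gave 0.52 (adjusted p = 0.11). SF3A1, the SF3A subunit that contacts U1 and U2, rose instead, from between 8.32 and 8.79 at 35 dpc to between 9.34 and 9.78 at 63 dpc (0.92 ± 0.17, adjusted p = 0.000182) and lay between 8.76 and 10.12 afterwards. On the hybridisation control scale its first rise was 0.13 (adjusted p = 0.536).

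SF3B2, which helps anchor the U2 snRNP, rose by 0.63 ± 0.09 from 35 to 63 dpc (−0.15 on the hybridisation control scale) and fell by 0.50 ± 0.09 from 91 dpc to the adult (adjusted p = 6.69e-05). SF3B5, the smallest core subunit, was 0.59 ± 0.07 lower at 91 than at 63 dpc (adjusted p = 1.23e-05), with pools between 10.13 and 10.73 against 10.79 and 11.27. SF3A3, another SF3A subunit, changed by −0.39 ± 0.07 over the whole span (adjusted p = 0.000165), from between 10.56 and 10.98 to between 10.24 and 10.58. Of the U2AF genes, U2AF1L4, a paralogue of the small subunit, rose by 0.80 ± 0.17 over the whole span, which was −0.39 on the hybridisation control scale. The formal call of U2AF2 as lower over that span, −0.09, was made on values below background.

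Of the 9 PRPF genes, 1 fell and 0 rose from 35 to 63 dpc, where 22% and 22.3% of all probe sets did. From 63 to 91 dpc 2 fell and 1 rose (9.4% and 8.88%), and from 91 dpc to the adult 5 fell and 0 rose (26.6% and 30.8%). PRPF4B, a kinase of the tri-snRNP, lay between 9.05 and 9.41 at 35 dpc, 8.91 and 9.34 at 63 dpc and 8.59 and 9.01 at 91 dpc. Adult DL pools read 7.82, 7.98 and 6.42 and Pi pools 7.80, 7.68 and 7.40, all below the prenatal ones (−1.36 ± 0.19 from 91 dpc, adjusted p = 5.49e-06). PRPF3, a tri-snRNP protein linked to inherited retinal disease, was the gene with a rise from 63 to 91 dpc whose pools did not overlap. It went from between 8.74 and 9.35 to between 9.39 and 9.61, by 0.53 ± 0.10 (adjusted p = 0.00115), and fell by 0.49 ± 0.10 by the adult stage (adjusted p = 0.000523). With scaling to hybridisation controls the rise was 0.37 and did not pass (adjusted p = 0.0963). PRPF19, a ubiquitin ligase of the active spliceosome, passed in none of the 4 comparisons, with pools between 8.19 and 9.96 over all stages.

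Of the 16 RBM genes, 6 (37.5%) were higher and 8 (50%) lower in adults than at 35 dpc, against 36% and 30.5% of all probe sets. The share of rises was close to that of all probe sets. At the successive steps 5, 0 and 4 rose and 6, 1 and 6 fell. Of all probe sets 22.3%, 8.88% and 30.8% rose and 22%, 9.4% and 26.6% fell at these steps. RBM3, a glycine-rich RNA-binding protein known for induction by cold, fell at each step, by 0.54 (adjusted p = 8.47e-05), 0.48 (adjusted p = 0.00103) and 2.67, with overlapping pools at 63 and 91 dpc. All 6 pools at 35 dpc lay between 12.98 and 13.11, those at 63 dpc between 12.37 and 12.74, at 91 dpc between 11.76 and 12.52, and in adults between 9.18 and 9.70. The adult fall from 91 dpc was 6.37-fold (−2.67 ± 0.09, adjusted p = 4.41e-14) and that over the whole span 13-fold (−3.70 ± 0.09, adjusted p = 1.11e-16). RBM26, a zinc finger RNA-binding protein, went from between 10.38 and 11.09 at 35 dpc to between 6.85 and 7.96 in adults, and its 4 probe sets changed by −3.21, −2.65, −2.37 and −1.60.

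RBM39, a U2AF-related splicing factor, fell by 0.92 ± 0.10 from 35 to 63 dpc and by 1.01 ± 0.10 from 91 dpc to the adult. RBM7, part of the nuclear exosome targeting complex, fell early, from between 7.81 and 8.92 to between 6.90 and 7.42 (−1.31 ± 0.16, adjusted p = 1.32e-06), and did not pass between 91 dpc and adults (0.15 ± 0.16, adjusted p = 0.421). RBM25 and RBM42 rose. RBM25, a regulator of apoptosis-gene splicing, went from between 8.20 and 8.95 at 35 dpc to between 9.13 and 10.09 at 63 dpc (1.0 ± 0.17, adjusted p = 0.000109), and RBM42, a protein with an RNA recognition motif, from between 8.07 and 8.65 to between 9.16 and 9.59 (0.97 ± 0.09, adjusted p = 3.11e-08). On the hybridisation control scale these rises were 0.22 and 0.18 and did not pass (adjusted p = 0.218 and 0.153). RBM4, an exon-inclusion factor studied in muscle cell differentiation, passed as higher after 91 dpc and not before, from between 7.78 and 9.0 to between 9.13 and 9.87 (1.1 ± 0.14, adjusted p = 2.42e-06), and kept 0.86 of that rise on the hybridisation control scale.

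The DDX helicases, most of which unwind or remodel RNA, moved in both directions. In adults 8 of 18 (44.4%) were higher and 4 (22.2%) lower than at 35 dpc, against 36% and 30.5% of all probe sets. From 91 dpc to the adult 7 (38.9%) rose and 3 (16.7%) fell, against 30.8% and 26.6%. Of the 6765 genes with 1 symbol 35.4% rose and 31.5% fell at that step. From 35 to 63 dpc 3 rose and 5 fell (22.3% and 22% of all probe sets), and from 63 to 91 dpc 0 rose and 2 fell (8.88% and 9.4%). Their median change was 0.34 after 91 dpc (0.10 on the hybridisation control scale) and 0.20 over the whole span (−1.0 on that scale). DDX56, a nucleolar helicase of large ribosomal subunit assembly, had the largest rise over the whole span. It lay between 4.47 and 5.84 at 35 dpc (median 5.26), 5.46 and 6.54 at 63 dpc (median 6.01), 5.89 and 6.57 at 91 dpc (median 6.24) and 6.94 and 7.71 in adults (median 7.45). Its changes were 2.13 ± 0.19 over the whole span (adjusted p = 1.05e-08; 0.93 on the hybridisation control scale, adjusted p = 0.00026) and 1.17 ± 0.19 after 91 dpc (adjusted p = 3.27e-05). The dimmer probe set of DDX56 changed by 2.68 ± 0.59 over the whole span.

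DDX27, DDX47 and DDX49, all helicases of ribosomal RNA processing, rose after 91 dpc by 1.1 ± 0.13, 1.33 ± 0.12 and 1.47 ± 0.43 (adjusted p = 8.66e-07, 1.4e-08 and 0.00735). DDX47 pools lay between 7.20 and 7.75 at 91 dpc and between 8.59 and 9.11 in adults. DDX49 rests on spread-out prenatal pools: at 91 dpc it read 5.87, 6.34 and 3.64 in DL and 6.32, 6.84 and 5.26 in Pi, against 6.90 to 7.43 in adults. With the GAPDH covariate its change was −0.67, and its dimmer probe set gave −0.71. DDX25, a helicase best known from testis, lay between 4.55 and 5.66 at 35 dpc. At 63 and 91 dpc it was above background in only 2 and 1 of 6 pools (at most 3.41 and 2.74), and adults read 6.93, 6.72 and 6.04 in DL and 6.37, 5.45 and 6.71 in Pi. The fitted −2.62 ± 0.25 and 4.04 ± 0.25 are not exact for that reason.

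DDX6, a helicase of mRNA decapping and storage, fell by 0.76 ± 0.12 from 35 to 63 dpc (adjusted p = 4.93e-05) and rose by 0.77 ± 0.12 from 91 dpc to the adult (adjusted p = 2.98e-05; 0.52 on the hybridisation control scale), so that adults, between 11.50 and 12.27, overlapped the 35 dpc pools, between 11.85 and 12.41. DDX21, a nucleolar helicase, fell by 0.97 ± 0.14 over the whole span (adjusted p = 5.72e-06), with 1 adult Pi pool at 9.87 inside the 35 dpc range. The largest fitted falls of the family over that span were those of DDX11 (−3.03 ± 0.55, adjusted p = 8.08e-05) and DDX50 (−2.22 ± 0.18, adjusted p = 3.75e-09). For both, adult and 35 dpc pools did not overlap. DDX11 was above background in only 2 of 3 DL and 1 of 3 Pi adult pools, so its value is not exact. DDX46, a helicase of early spliceosome assembly, was 1.91 ± 0.36 higher in adults by its brighter probe set, with 35 dpc pools at 6.20, 5.33 and 4.63 in DL and 5.18, 2.34 and 4.07 in Pi and adults between 6.24 and 6.82. Its other probe set fell by 2.90 ± 0.44, from between 7.01 and 7.90 to between 3.77 and 5.50, so no direction is given for the gene.

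Probe sets of the same gene moved together in most cases and apart in others. Of the 31 genes with several, 24 had at least 2 probe sets that passed over the whole span. In 17 of these they moved the same way and in 7 opposite ways: DDX46, HNRNPA2B1, RBM34, SNRPA1, SNRPG, SRSF10 and SRSF9. For the 35 to 63 dpc step the numbers were 19, 14 and 5, with DDX46, HNRNPA2B1, SNRPA1, SNRPG and SRSF11 moving opposite ways. For the last step they were 16, 11 and 5, with HNRNPA2B1, RBM34, SNRPG, SRSF10 and SRSF9 moving opposite ways. HNRNPA2B1, which packages and sorts nuclear RNA, fell by its brightest probe set from between 13.49 and 13.88 at 35 dpc to between 11.92 and 12.23 in adults (−1.61 ± 0.07, adjusted p = 7.17e-13). Its other probe sets rose from between 8.35 and 8.92 to between 9.68 and 10.22 (1.33 ± 0.09, adjusted p = 1.53e-10) and from between 6.13 and 6.77 to between 8.43 and 8.90 (2.38 ± 0.16, adjusted p = 2.79e-10). In each case adult and 35 dpc pools were fully apart.

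SRSF6, an SR protein of the larger class, was covered by 6 probe sets. Over the whole span they changed, from the brightest to the dimmest, by −0.83, −0.49, −1.37, −5.40, −5.02 and −0.31, the last without passing (adjusted p = 0.0825). The fourth and the fifth stood apart after 91 dpc. They went from between 9.04 and 9.94 to between 4.52 and 6.06 (−4.20 ± 0.24, adjusted p = 4.88e-11) and from between 9.07 and 9.59 to between 4.38 and 5.82 (−4.16 ± 0.20, adjusted p = 3.22e-12), while the brightest changed by −0.16 ± 0.13 (adjusted p = 0.28). Which part of the transcripts each probe set covers was not analysed here, so a difference between transcript forms and one between probe sets cannot be told apart.

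**Figure D4:**
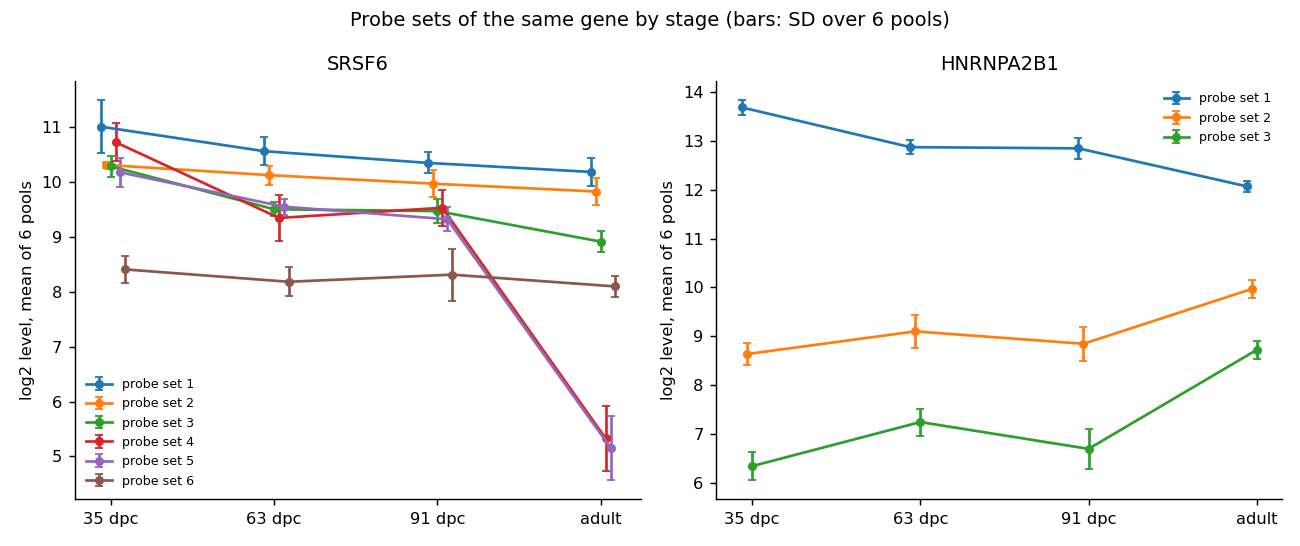
Mean log2 level (points; bars are SDs over 6 pools) of the 6 probe sets of SRSF6 and the 3 of HNRNPA2B1 by stage, numbered from the brightest. The fourth and the fifth SRSF6 probe sets drop in adults by −4.20 and −4.16 from 91 dpc, and the HNRNPA2B1 probe sets run in opposite directions.

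Other splicing genes were taken from lists by role. Of 29 measured spliceosome and snRNP proteins outside the 90 genes, 7 rose and 15 fell over the whole span (median −0.41). Among 14 exon junction and SR-related coactivators 4 rose and 10 fell (median −0.76), and among 23 tissue-restricted or other splicing regulators 3 rose and 14 fell (median −1.16). SR protein kinases and phosphatases (9 measured) divided into 4 higher and 4 lower (median −0.05), and proteins of snRNP assembly (10 measured) into 3 higher and 4 lower (median −0.09). Of the 6765 genes 40.4% rose and 34.6% fell over the same span, and their median was 0.12. Of all probe sets 36% rose and 30.5% fell. TRA2B, an SR-like activator of exon inclusion, fell from between 12.46 and 12.68 at 35 dpc to between 9.77 and 10.54 in adults (−2.47 ± 0.09, adjusted p = 1.2e-14), as did MAGOHB (−2.21 ± 0.20) and UPF3B (−2.05 ± 0.24), parts of the exon junction complex and nonsense-mediated decay.

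Large rises also occurred. SF1, which binds the branch point before the U2 snRNP does, went from between 6.19 and 7.05 at 35 dpc to between 9.70 and 10.24 at 63 dpc (3.39 ± 0.16, adjusted p = 4.46e-12) and lay between 9.82 and 10.64 in adults. SART1, a tri-snRNP recruitment factor, and XAB2, a component of the active spliceosome, rose over the whole span by 2.65 ± 0.10 and 3.17 ± 0.23, and CLK3, a kinase of SR proteins, by 2.37 ± 0.16. Scaling to the hybridisation controls lowers every probe set by 1.2 over the whole span, less than any of these rises. PPP1CA, a phosphatase catalytic subunit, changed by 1.75 ± 0.27 from 35 to 63 dpc. GEMIN5 and WDR77, both of snRNP assembly, changed by 1.06 ± 0.14 and 0.93 ± 0.08 over the whole span, which is less than that lowering.

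Regulators known for muscle or neural exons fell at different times. RBFOX2, which controls many muscle exons, did not pass from 35 to 63 dpc (0.03 ± 0.09, adjusted p = 0.89), fell by 0.31 ± 0.09 from 63 to 91 dpc (adjusted p = 0.0212) and fell over the whole span by 2.48 ± 0.09 (adjusted p = 2.11e-14), from between 12.73 and 13.00 to between 10.06 and 10.67. PTBP1, a repressor of tissue-specific exons, CELF2, a regulator of developmental exons, and QKI fell over the whole span by 1.35 ± 0.08, 1.68 ± 0.09 and 0.96 ± 0.12. CELF4 and ELAVL4, regulators known from neurons, read between 7.67 and 8.84 and between 9.04 and 9.91 at 35 dpc and lay at background in all 6 pools at 63 dpc, beside the fall of the neural markers at the same step. KHDRBS3, a STAR-family regulator, fell by 3.48 ± 0.32 at that step and by 6.25 ± 0.32 over the whole span, to adult readings from 2.17 to 4.93 that reach background. MBNL1, CELF1, PTBP2, RBFOX1 and SRPK3 were not analysed here.

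At 35 dpc, 7 of the 90 genes differed between the breeds, where 4.03% of all probe sets did. Pi was lower in HNRNPA1, SF3B4, SNRPA and SNRPB and higher in SRSF6, HNRNPK and RBM39. HNRNPA1 read 13.49, 13.40 and 13.30 in DL and 12.65, 12.14 and 12.40 in Pi, a 2-fold difference (−1.0 ± 0.12, adjusted p = 0.000145). SNRPA read 10.34, 10.27 and 10.27 in DL and 9.62, 9.43 and 9.53 in Pi (−0.77 ± 0.11, adjusted p = 0.000459). SF3B4, an SF3B subunit with RNA recognition motifs, read 8.96, 8.77 and 8.47 in DL and 8.12, 7.80 and 7.86 in Pi (−0.81 ± 0.15, adjusted p = 0.00414). The breeds did not overlap in any of the 3 genes.

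HNRNPK read 12.81, 12.72 and 12.76 in DL and 13.03, 13.64 and 13.58 in Pi (0.66 ± 0.13, adjusted p = 0.00534), with Pi pool a nearest to DL. SNRPB (−0.68 ± 0.18), SRSF6 (0.73 ± 0.18) and RBM39 (0.53 ± 0.14) passed with adjusted p = 0.0344, 0.0264 and 0.0425, without overlap between breeds. These 3 lost the call in 5 of the 6 fits that each left out 1 of the 35 dpc pools. Without DL pool c, Pi pool b or Pi pool c 4 of the 90 genes passed (2.6%, 2.97% and 2.43% of all probe sets). The calls of HNRNPA1, SNRPA, SF3B4 and HNRNPK were kept in all 6. By the second brightest probe set the differences were 0.14 for HNRNPK, −0.02 for SRSF6 and 0.06 for RBM39, and none passed.

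Other measurements differed between the breeds at 35 dpc as well. The GAPDH 3′ minus 5′ difference was 0.80, 0.60 and 0.52 in DL and 1.18, 1.08 and 1.21 in Pi, with no overlap. The second GAPDH control (1.44 to 1.79 in DL, 1.36 to 1.51 in Pi) overlapped between the breeds. So did the actin control (2.118 to 2.625 in DL, 2.38 to 2.677 in Pi). With the GAPDH 3′ minus 5′ difference as a covariate 4 of the 90 genes passed, where 2.79% of all probe sets did. SNRPA (−0.64), HNRNPA1 (−1.11) and HNRNPK (0.63) were among them, while SF3B4 (−0.68, adjusted p = 0.06) and SNRPB (−0.35, adjusted p = 0.425) were not. When limma weighted each array by its noise, 24 of the 90 passed, where 13.2% of all probe sets did in that fit. The hybridisation controls lay between 10.02 and 10.26 in DL and between 9.57 and 9.78 in Pi, so that scaling to them raised all probe sets in Pi by 0.49 and left 44 of the 90 genes higher and 1 lower (31% and 0.671% of all probe sets). On that scale HNRNPA1 kept its call, and SNRPA (−0.28), SF3B4 (−0.32) and SNRPB (−0.19) did not. Muscle fibre markers passed as lower in Pi in 8 of 14 cases, with a log2 summed level between 16.89 and 17.01 in DL and between 16.78 and 16.85 in Pi. The part of any of these in the breed differences was not tested.

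**Figure D5:**
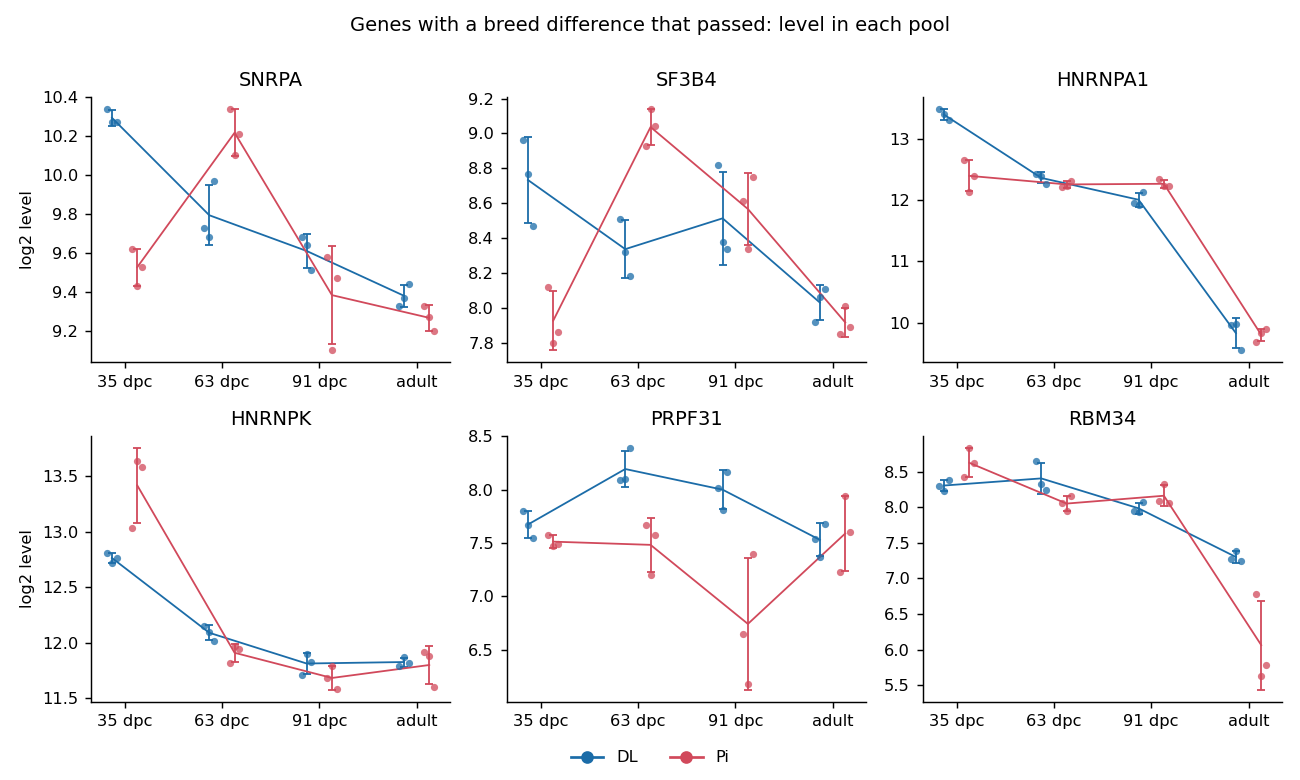
Log2 level in each pool (points; lines join means of 3 pools, bars are SDs) of 6 genes with a breed difference that passed at some stage, by stage and breed (blue DL, red Pi), each panel on its own scale. SNRPA and SF3B4 passed as lower in Pi at 35 dpc, and at 63 dpc SF3B4 passed as higher and SNRPA did not pass (0.43, adjusted p = 0.0631); HNRNPA1 and HNRNPK passed at 35 dpc only, PRPF31 is lower in Pi at 91 dpc and RBM34 in adults.

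At 63 dpc 1 of the 90 passed, where 1.37% of all probe sets did: SF3B4 read 8.51, 8.32 and 8.18 in DL and 8.93, 9.14 and 9.04 in Pi (0.70 ± 0.15, adjusted p = 0.0267). The call was lost without DL pool b, DL pool c, Pi pool b or Pi pool c, in a fit of the 63 dpc arrays alone (adjusted p = 0.0934) and on the hybridisation control scale (0.58, adjusted p = 0.235). SNRPA, at 9.73, 9.68 and 9.97 in DL and 10.34, 10.10 and 10.21 in Pi, did not pass (0.43 ± 0.11, adjusted p = 0.0631). At 91 dpc 2 passed, where 2.72% of all probe sets did. PRPF31, a tri-snRNP protein linked to retinal disease, read 8.02, 7.81 and 8.17 in DL and 6.65, 6.18 and 7.40 in Pi (−1.25 ± 0.23, adjusted p = 0.00703), and HNRNPAB, a transcription and splicing regulator, 10.79, 10.81 and 10.70 against 10.39, 10.23 and 10.47 (−0.41 ± 0.09, adjusted p = 0.0207).

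The GAPDH difference overlapped between the breeds at 91 dpc, at 0.28, 0.25 and 1.16 in DL and 0.84, 1.31 and 0.95 in Pi. With it as a covariate PRPF31 passed (−1.23, adjusted p = 0.0498) and HNRNPAB did not (−0.34, adjusted p = 0.172), and in a fit of the 91 dpc arrays alone neither did (adjusted p = 0.235 and 0.174). Scaling to the hybridisation controls changed all probe sets in Pi by −0.42 and left 1 of the 90 higher and 23 lower (0.738% and 25.5% of all probe sets), PRPF31 (−1.67) and HNRNPAB (−0.83) among the lower. The part of either in the breed differences was not tested. Without DL pool c, which stood apart in its GAPDH difference, 7 of the 90 passed (5.24% of all probe sets). Without DL pool a, DL pool b or Pi pool b 1 did (1.22%, 1.66% and 1.03%).

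In adults 1 of the 90 differed between breeds, where 6.33% of all probe sets did. When limma weighted each array by its noise, 1.01% of all probe sets did. RBM34, a nucleolar RNA-binding protein, read 7.27, 7.39 and 7.24 in DL and 6.78, 5.63 and 5.78 in Pi (−1.24 ± 0.21, adjusted p = 0.00151), with Pi below DL in every pool. Its second probe set gave −0.27 (adjusted p = 0.801). RBM34 passed in each fit that left out 1 adult pool. A fit of the adult arrays alone gave it an adjusted p of 0.314. Without DL pool a, DL pool b or Pi pool c 4 genes passed, where 5.53%, 5.71% and 5.83% of all probe sets did. Without Pi pool b 3 passed (7.92%), and without DL pool c or Pi pool a 2 (6.84% and 7.15%).

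The change from 35 to 63 dpc differed between breeds for 7 of the 90 genes, where 3.3% of all probe sets had such an interaction. SNRPA fell by 0.50 in DL and rose by 0.69 in Pi, a difference of 1.19 ± 0.15 (adjusted p = 0.000461), and SF3B4 changed by −0.39 in DL and 1.11 in Pi (difference 1.51 ± 0.21, adjusted p = 0.00082). HNRNPA1 changed by −1.03 in DL and −0.14 in Pi (0.89 ± 0.17, adjusted p = 0.00851), HNRNPK by −0.67 and −1.51 (−0.84 ± 0.18, adjusted p = 0.0145). These 4 kept the call in each of 12 fits without 1 pool. SRSF6, RBM39 and RBM42 passed with adjusted p = 0.0315, 0.0379 and 0.0382 and lost the call in 10, 10 and 9 of the 12, and 4 to 6 of the 90 genes passed in these fits; without DL pool a, b or c or Pi pool b at 35 dpc, or DL pool a or Pi pool c at 63 dpc, it was 4. On the hybridisation control scale, which changes this difference by −0.61 for every probe set, 1 gene passed as higher and 37 as lower (0.575% and 25% of all probe sets). There SF3B4 (0.90), HNRNPK (−1.45), SRSF6 (−1.65) and RBM39 (−1.40) passed, and SNRPA (0.58, adjusted p = 0.111), HNRNPA1 (0.28, adjusted p = 0.365) and RBM42 (0.06, adjusted p = 0.854) did not. As the interaction shares the 35 dpc pools with the breed comparison at that stage, it is not separate evidence of the latter. The interactions are those of the brightest probe sets. By the second brightest, the 35 dpc differences of HNRNPK, SRSF6 and RBM39 did not pass, as given above.

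From 63 to 91 dpc 0 of the 90 genes passed by limma, where 0.0917% of all probe sets did; 9 had an unadjusted p below 0.05, and without DL pool c at 63 dpc 1 passed. From 91 dpc to the adult 4 passed, where 2.66% of all probe sets did. RBM34 changed by −0.68 in DL and −2.10 in Pi (−1.42 ± 0.29, adjusted p = 0.0157) and kept the call in each of 12 fits without 1 pool. HNRNPAB, SRSF9 and PRPF31 passed with adjusted p = 0.0298, 0.0349 and 0.0411 and lost the call in 6, 7 and 8 of them. By its second brightest probe set the difference of SRSF9 was −1.35 (adjusted p = 0.209). The other probe set of RBM34 passed as higher at this step, averaged over both breeds, where the brightest passed as lower. Without DL pool a or Pi pool b at 91 dpc 1 of the 90 genes passed, and without DL pool b or Pi pool a at 91 dpc or DL pool b in adults 2 did. None of the 4 passed with array weights, with the GAPDH covariate or in a fit of the 4 groups alone, where RBM34 had adjusted p = 0.0507, 0.089 and 0.162. Genes whose breed difference passed at 35 dpc, SNRPA, SF3B4, HNRNPA1 and HNRNPK, differed by −0.11 ± 0.11, −0.11 ± 0.15, −0.03 ± 0.12 and −0.03 ± 0.13 in adults, with overlapping pools. The other 3 genes that passed at 35 dpc did not pass in adults either: SNRPB (−0.38 ± 0.18, adjusted p = 0.238) and RBM39 (−0.08 ± 0.14, adjusted p = 0.844) had overlapping pools. SRSF6 (0.42 ± 0.18, adjusted p = 0.19) was higher in all 3 Pi pools than in any DL pool.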

How the data were processed

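The authors deposited 1 log2 value per probe set and RNA pool for 24 Affymetrix GeneChip Porcine Genome Arrays, and GCOS 1.1.1 is listed in the submitters' processing notes; the sources used here do not give the probe summary or background correction. The log2 base was taken from the range of the values, 1.598 to 16.1, and the sorted columns were identical, as after quantile normalisation. The tests covered 23999 of 24123 probe sets, without 124 controls. The platform annotation gives 1 symbol to 10069 of them, several to 198 and none to 13732; all 90 genes matched a RefSeq symbol.

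All 24 arrays entered a single limma 3.58.1 fit (R 4.3.3) of the 8 group means by lmFit and eBayes (two-sided, 16 residual degrees of freedom plus 1.31 from the prior), and p-values were adjusted over all 23999 probe sets by Benjamini-Hochberg, with a threshold of 0.05. Errors are standard errors of the fit. A mean over the breeds gave each of the 4 stage comparisons; 4 breed comparisons (Pi minus DL) and 3 breed-by-step interactions complete the 11. The procedure was checked on simulated data. The number of arrays limits the precision. Pools "do not overlap" when all of one group lie above all of the other.

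Genes were named by a rule: the 5 largest rises and falls without overlap at each stage comparison, the 5 largest in each direction of each breed comparison and interaction, and a panel of common splicing factors. HNRNPL, SNRPF, U2AF1L4, DDX11, DDX50 and the members listed only to complete a family were named after their values were seen, as were the other splicing genes named singly. The members and the gene lists were chosen with earlier results of these data known.

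Alternatives were the mean or the second brightest probe set of a gene, scaling to 9 hybridisation controls, leaving out probe sets above background on fewer than 3 arrays, array weights, an intensity trend in the prior, only the arrays of the groups compared, a replicate block and leaving out each pool. Single-breed comparisons and a covariate of the GAPDH 3′ minus 5′ value were added after seeing the data. Same-letter pools did not deviate together: none of 84 pairs had a correlation over 0.1 (range −0.0775 to 0.0912), so pool letters were not treated as pairs.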

Additional observations from a re-analysis of the deposited data

Results flagged for a closer look

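For 11 results the change over a step of development differed between DL and Pi by the interaction test of limma, with p-values adjusted over all probe sets. Groups of 3 pools were not screened for single outlying pools.

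From 35 to 63 dpc, SF3B4 changed by −0.39 in DL and 1.11 in Pi (difference 1.51 ± 0.21, adjusted p = 0.00082), and SNRPA by −0.50 and 0.69 (1.19 ± 0.15, adjusted p = 0.000461). HNRNPA1 changed by −1.03 in DL and −0.14 in Pi, a difference of 0.89 ± 0.17 (adjusted p = 0.00851). HNRNPK changed by −0.67 in DL and −1.51 in Pi, a difference of −0.84 ± 0.18 (adjusted p = 0.0145). The differences of SRSF6 (−1.04 ± 0.25), RBM39 (−0.79 ± 0.20) and RBM42 (0.67 ± 0.17) passed with adjusted p = 0.0315, 0.0379 and 0.0382.

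From 91 dpc to the adult, RBM34 changed by −0.68 in DL and −2.10 in Pi (−1.42 ± 0.29, adjusted p = 0.0157), and PRPF31 by −0.47 and 0.84 (1.31 ± 0.33, adjusted p = 0.0411). The other probe set of RBM34 passed as higher at this step, averaged over both breeds. SRSF9 changed by −1.56 in DL and −0.89 in Pi (0.68 ± 0.16, adjusted p = 0.0349), and HNRNPAB changed by −0.33 and 0.21 (0.54 ± 0.13, adjusted p = 0.0298).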

How the results depend on the processing

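Quantile normalisation, 3 pools a group and the wider spread of adult pools limit the counts, and a change in total mRNA cannot be seen. Leaving out single pools, called genes numbered 13 to 15 higher and 39 to 40 lower from 35 to 63 dpc, 2 to 4 and 15 to 20 from 63 to 91 dpc, 12 to 14 and 43 to 47 from 91 dpc to the adult, and 17 to 18 and 54 to 58 over the whole span. The 4 breed counts ranged over 4 to 8, 0 to 1, 1 to 7 and 2 to 4, and the 3 interactions over 4 to 6, 0 to 1 and 1 to 5. The shares of all probe sets in the 4 breed comparisons were 2.42% to 3.53%, 0.679% to 1.62%, 1.03% to 5.24% and 5.53% to 7.92%. For the interactions they were 1.94% to 3.17%, 0.05% to 0.479% and 1.47% to 3.94%. Of the 55, 20, 58 and 72 stage calls, 52, 16, 55 and 71 passed in every such fit.

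Scaling to hybridisation controls gave 2 higher and 75 lower from 35 to 63 dpc, 0 and 31 from 63 to 91 dpc and 1 higher over the whole span. It gave 45, 0, 24 and 2 breed calls at 35, 63 and 91 dpc and in adults, and 38 and 1 interactions at the first and last steps. Of all probe sets 0.171% were higher and 0.529% lower at 63 dpc, 1.41% and 6.16% in adults, and 1.01% and 0.433% in the last interaction. The other shares on this scale are given above. With the GAPDH covariate 4 rose and 25 fell from 91 dpc to the adult (10.2% and 11.7% of all probe sets), and 6 rose over the whole span (17.3%). Of the 55 falls over the whole span 38 passed with it, where 17.6% of all probe sets fell. The breed counts with that covariate were 4, 2, 1 and 3 (2.79%, 1.45%, 1.17% and 6.65%), and 0 interactions passed at the last step (1.35%). Within DL 6 fell from 63 to 91 dpc, where 4.92% of all probe sets did. Array weights gave 24, 3 and 8 breed calls at 35, 63 and 91 dpc, where 13.2%, 4.17% and 5.35% of all probe sets passed. In adults 1.01% of all probe sets passed with these weights, against 6.33% without them. The weights gave 15 and 0 interactions at the first and last steps (9.7% and 0.725%). Fits of only the groups compared gave 0 breed calls at 63 and 91 dpc and in adults and 0 interactions at the last step. The second brightest probe sets gave 3, 4 and 3 breed calls at 63 and 91 dpc and in adults. The mean of probe sets gave 2 in adults, and 4 and 2 interactions at the first and last steps. Leaving out dim probe sets gave 1 breed call at 91 dpc and 2 interactions at the last step, and an intensity trend gave 4 breed calls in adults. With pool letter as a replicate block, 2 rather than 1 gene differed between breeds in adults, and 4 of 140 comparisons of named genes lost their call. The cause was not tested. Shares of all probe sets are not given for the fits listed after the array weights, so the counts of those fits cannot be compared with the rest of the array.

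Directions reversed mostly with the probe set. By the second brightest one, HNRNPA2B1 changed by 0.47 from 35 to 63 dpc, 1.12 after 91 dpc and 1.33 over the whole span (0.18, 0.79 and 0.70 by the mean), and DDX46 by −2.39 from 35 to 63 dpc and −2.90 over the whole span (−0.37 and −0.49 by the mean). DDX49 changed by −0.71 after 91 dpc and −0.73 over the whole span, and by −0.67 and −0.99 with the GAPDH covariate. The last-step interaction of SRSF9 was −1.35 (−0.33 by the mean). SNRPG (0.28) and HNRNPC (0.23) reversed from 63 to 91 dpc, HNRNPD at the first step (0.12) and after 91 dpc (0.12), HNRNPR (0.04) and SF3B1 (0.52) after 91 dpc, and SRSF6 between breeds at 35 dpc (−0.02). On the hybridisation control scale SF3B2 (−0.15) and SNRPB (−0.38) reversed from 35 to 63 dpc, and DDX27 (−0.14) and HNRNPU (−0.22) over the whole span.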

Other observations

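Markers of other cell types in whole muscle also moved with the stages. Endothelial markers (9 of 10 measured) passed as higher in 7 cases from 35 to 63 dpc and in 9 from 63 to 91 dpc, and from 91 dpc to the adult 1 passed as higher and 5 as lower. The log2 of their summed level went from between 10.42 and 10.69 at 35 dpc to between 12.47 and 13.04 at 91 dpc and between 11.44 and 11.80 in adults, where KDR lay at background in all 6 pools. Immune cell markers (6 of 10 measured) rose in 3, 2 and 4 cases at the successive steps, with summed levels between 5.92 and 6.54 at 35 dpc and between 10.67 and 11.11 in adults. Adipocyte markers (5 of 7 measured) rose in 2, 4 and 2 cases and fell in 0, 0 and 1, from between 5.86 and 7.60 to between 11.21 and 12.40. Erythroid markers (5 of 8 measured) fell in 2, 0 and 3 cases, from between 11.11 and 11.46 to between 6.62 and 8.59. Their part in the changes of the splicing genes was not tested.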
